A study of Mus musculus with 4 samples.

Results

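The brain and the spine of control embryos of CD-1, an outbred mouse stock, were compared at embryonic day 9.5 (E9.5) by RNA-seq. The comparison rests on 1 control brain library and 1 control spine library, 2 of the 4 libraries of a study of neural tube defects (NTD). Its members are the 11199 protein-coding genes whose mean over the 4 libraries was at least 1 FPKM, out of 28765 genes in the deposited table, 17616 of which are protein coding. FPKM is a read density scaled to the length of the gene and the depth of the library, so levels can be compared between genes and between libraries. For each gene the ratio of (FPKM + 1) in brain to (FPKM + 1) in spine was taken on the log2 scale, where positive values mean higher in brain. The 1 added to each value draws the ratio of a weakly expressed gene towards 0.

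The other pair of libraries, NTD brain and NTD spine, came from embryos whose treatment label is folate deficiency with NTD, in a model where methotrexate (MTX), which blocks folate metabolism, is injected intraperitoneally into the mother on E7.5 at a dose of 1.5 mg/kg. A low-folate diet of the parents, kept up for over 8 weeks, is described in the labels in the same words for control and NTD samples. The labels do not say whether the control mothers were injected or fed differently. They name the samples brain cell and spine cell, and they give neither the number of embryos pooled nor where the tissue was cut. NTD brain against NTD spine is the same regional contrast in libraries that the control pair does not use, and its values are given beside those of the control pair. With 1 library per group there is no replicate check, and no p-value is given.

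By E9.5 the neural tube of the mouse is largely closed and is already divided along its length. Forebrain and midbrain are marked by homeobox genes such as Otx2, the boundary of midbrain and hindbrain by the isthmic organiser, a source of FGF and Wnt signals, and the hindbrain and spinal cord by the Hox genes. Hox genes lie in 4 clusters, and their order along the chromosome matches the order of their domains along the body, with low paralog numbers anterior and high numbers posterior. Caudally the tail bud still adds new tissue under FGF and Wnt signals, while retinoic acid made in the somites opposes them.

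Most genes had closely similar levels in the 2 control libraries. The median log2 ratio over the 11199 genes was 0.01, the quartiles were -0.11 and 0.11, and 10438 genes (93.2%) were within 1.5-fold. At least 2-fold higher in brain were 80 genes, which is 0.714% of those tested, and at least 2-fold higher in spine were 234 genes, 2.09%. Differences of 4-fold or more were found for 18 genes in brain and 104 in spine, and 8-fold or more for 2 and 42. The spine-high genes also reached higher levels: 37 of them stood at 20 FPKM or more in spine, with a maximum of 307, while 3 of the brain-high genes did so in brain, with a maximum of 36.2. Their median was 5.91 FPKM in spine and 0.683 in brain, against 7.08 FPKM in brain and 1.43 in spine for the brain-high genes. In control brain 25 of the 234 spine-high genes had 0 reads, and in control spine 1 of the 80 brain-high genes did.

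**Figure D1:**
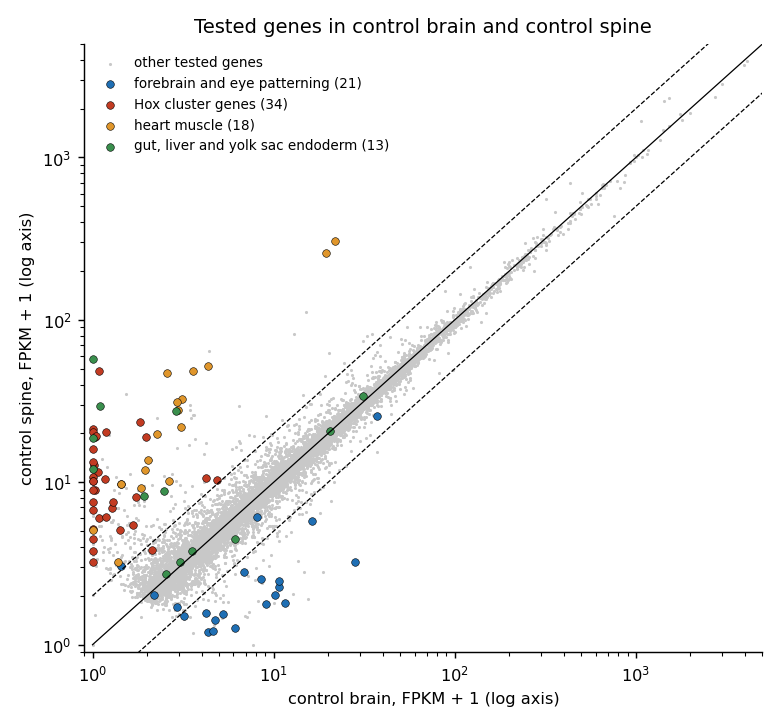
Level of each of the 11199 tested protein-coding genes in control brain (horizontal, FPKM + 1, log axis) and control spine (vertical, FPKM + 1, log axis), 1 library each. The solid line marks equal levels and the dashed lines 2-fold, and coloured points are the tested members of 4 gene lists: forebrain genes lie mostly below the lower dashed line, while Hox, heart and several endoderm genes lie above the upper one.

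Reads behind each value were recovered from FPKM and gene length, from library totals of 16272101 to 16911677 reads. For a gene of 1 kb, 1 FPKM was worth 16.3 to 16.9 reads. The folds below are ratios of reads per library total with exact (Clopper-Pearson) conditional 95% intervals in parentheses, which cover counting error only and not the variation between embryos. Where a library had 0 reads the fold is a lower bound against 3 reads in that library. The filter on the mean passes a weakly expressed gene mainly where at least 1 library was high, so counts below speak of tested members only. At the limit of the filter, Nipal3 and Fam221a fell just short with a mean of 0.999 FPKM, and their control ratios were -0.06 and -0.21. Nxph3 and Ptrhd1 just passed it with a mean of 1.0004 and 1.001 FPKM and ratios of -0.13 and 0.13. In bulk tissue, fewer cells of a type and less RNA per cell cannot be told apart, which holds for every difference below. Gene groups are described by the tested members at 2-fold and their median log2 ratio, to be read against 0.714% and 2.09% and the median of 0.01 over all tested genes. Some genes are in more than 1 list.

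The stretch of 250 bases before the start site was examined as a feature that took no part in choosing the genes. Many vertebrate promoters are rich in CpG, the dinucleotide that DNA methylation acts on, and these serve genes used widely or in early development, while promoters of many tissue-restricted products are poor in CpG and more often carry a TATA box. RefSeq promoter sequences (GRCm38.p6) matched 8864 of the 11199 tested genes, 57 of the 80 brain-high genes and 174 of the 234 spine-high genes. The 5 stretches shown were chosen after the values were seen, to span this range among genes with different roles: Dmbx1, a homeobox gene of the midbrain, from the brain-high genes, and from the spine-high genes Aldh1a2, the main enzyme of retinoic acid synthesis in the trunk, Hoxb8, a trunk Hox gene, Myl7, the atrial myosin light chain, and Afp, the fetal serum protein alpha-fetoprotein. Each is written 5′ to 3′ on the strand of its gene and ends at the base before the RefSeq start, with every CpG in capitals.
Dmbx1: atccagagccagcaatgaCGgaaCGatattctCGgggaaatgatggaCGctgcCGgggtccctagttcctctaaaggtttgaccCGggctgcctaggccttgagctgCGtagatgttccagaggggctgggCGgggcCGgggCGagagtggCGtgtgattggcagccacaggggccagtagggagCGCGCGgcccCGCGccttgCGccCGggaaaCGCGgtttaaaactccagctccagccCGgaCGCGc
Aldh1a2: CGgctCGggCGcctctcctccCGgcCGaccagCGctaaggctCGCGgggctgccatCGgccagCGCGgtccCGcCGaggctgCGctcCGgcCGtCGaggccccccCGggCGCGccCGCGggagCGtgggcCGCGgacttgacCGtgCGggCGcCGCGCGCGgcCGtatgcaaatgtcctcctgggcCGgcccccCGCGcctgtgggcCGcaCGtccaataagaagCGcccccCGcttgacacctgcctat
Hoxb8: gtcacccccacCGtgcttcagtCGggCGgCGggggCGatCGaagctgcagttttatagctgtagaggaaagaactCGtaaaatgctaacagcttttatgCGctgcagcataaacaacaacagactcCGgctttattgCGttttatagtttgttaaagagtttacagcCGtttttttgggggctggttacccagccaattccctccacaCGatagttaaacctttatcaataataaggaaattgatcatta
Myl7: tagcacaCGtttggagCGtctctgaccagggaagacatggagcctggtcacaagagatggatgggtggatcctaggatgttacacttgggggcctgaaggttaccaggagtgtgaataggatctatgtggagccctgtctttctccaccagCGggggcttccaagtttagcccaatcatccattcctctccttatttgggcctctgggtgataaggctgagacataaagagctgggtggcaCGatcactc
Afp: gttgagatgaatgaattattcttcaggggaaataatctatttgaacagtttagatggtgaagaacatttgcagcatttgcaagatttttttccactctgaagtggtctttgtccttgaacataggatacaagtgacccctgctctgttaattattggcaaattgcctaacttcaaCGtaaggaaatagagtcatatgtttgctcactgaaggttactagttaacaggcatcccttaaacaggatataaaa

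These lie at chr4:115939927-115940176 on the minus strand (Dmbx1), chr9:71215539-71215788 on the plus strand (Aldh1a2), chr11:96281655-96281904 on the plus strand (Hoxb8), chr11:5898783-5899032 on the minus strand (Myl7) and chr5:90490464-90490713 on the plus strand (Afp), and none overlaps an annotated exon. They hold 23, 40, 12, 4 and 1 CpG in that order, and their GC content is 65.2%, 77.6%, 44.4%, 52.8% and 36.0%. The GENCODE start of Afp lies 23 bases further, so the letters TATAAA at the end of its stretch begin 30 bases before that start.

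Spine-high genes had fewer CpG before their start than tested genes at large. The median was 7 CpG in 250 bases for the 174 spine-high genes, 14 for the 57 brain-high genes and 17 for the 8864 tested genes with a sequence. Fewer than 5 CpG were found in 31.6% of the spine-high genes, 15.8% of the brain-high genes and 7.44% of all. Within the spine-high genes the 20 Hox genes with a sequence had a median of 12. The median was 5 for 17 genes of the heart list and 4 for the gut list, which had only 5 genes with a sequence. Without the Hox genes the median of the spine-high genes was 6.5. TATAAA on either strand was present before 15.5% of spine-high, 7.02% of brain-high and 5.97% of all genes. TTTATNG, letters that caudal homeodomain factors are known to bind, was present on either strand before 16.7%, 1.75% and 5.79%, and before 2 of the 20 Hox genes. TTTATNG and the reverse of TATAAA share letters, and spine-high genes also had a lower median GC content (56.6%, against 61.6% for brain-high genes and 60.8% for all), which by itself moves the frequency of such letters. CCAAT, for comparison, was found on either strand before 38.5%, 38.6% and 37.1%. AGATAA, which GATA factors bind, was present before 10.9%, 14.0% and 5.40%, and TAATCC, which Otx-type homeodomains bind, before 4.60%, 5.26% and 4.65%. A match is a run of letters and no measured binding, and whether methylation or any factor differs at these sites was not measured.

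**Figure D2:**
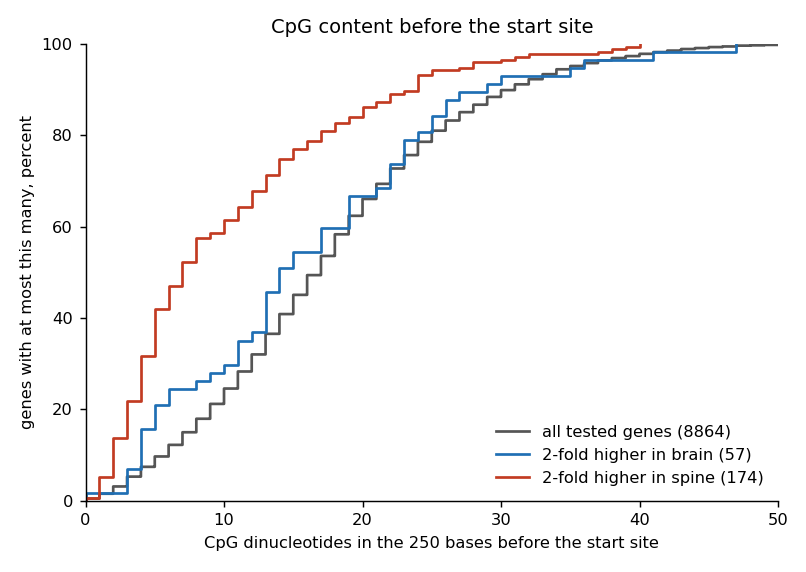
Cumulative share of genes (vertical, percent) by the number of CpG dinucleotides in the 250 bases before the RefSeq start (horizontal) for all 8864 tested genes with a sequence, the 57 brain-high and the 174 spine-high genes. The spine-high curve lies to the left of the other two, with a median of 7 CpG against 14 and 17.

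Forebrain genes made up the largest named group among the brain-high genes. Of 27 listed genes of forebrain and eye patterning 21 were tested, 16 were at least 2-fold higher in brain and 1 was at least 2-fold higher in spine, with a median log2 ratio of 1.74 (2.04 in the NTD pair). Otx2 (ENSMUSG00000021848, chromosome 14, 48657677 to 48673819), which is required to form forebrain and midbrain, stood at 27.1 FPKM in control brain, 2.21 in control spine, 28.7 in NTD brain and 0.457 in NTD spine. Both brain libraries were thus high and close to each other, and the spine libraries low. Nr2e1, a nuclear receptor that keeps forebrain progenitors dividing, was at 10.5 FPKM in control brain and 0.811 in control spine, 12.9-fold higher in brain (9.67 to 17.7). Otx1, the paralog of Otx2, was 8.98-fold higher (7.22 to 11.3), from 9.16 against 1.02 FPKM. Fezf1, a zinc finger repressor of the rostral forebrain, differed 10.2-fold (7.08 to 15.3).

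Six3, which specifies the most anterior neural plate and the eye field, was at 5.08 FPKM in control brain and 0.271 in control spine, an 18.8-fold difference (12.5 to 29.6). Nkx2-1, a gene of the ventral forebrain and the thyroid, was 7.60-fold higher (5.79 to 10.1), and Dmrta2, a gene of the dorsal telencephalon, 6.67-fold higher (5.17 to 8.71). Lhx2, needed for eye and cortex, stood at 15.2 FPKM in brain and 4.77 in spine, and Lhx5 at 7.54 and 1.55. Nr2f1, a nuclear receptor that is not limited to the forebrain, had the highest level of the list in brain (36.1 FPKM) and only 1.48-fold less in spine (1.40 to 1.56). Lhx9 ran the other way, at 0.436 FPKM in brain and 2.07 in spine. Lhx9 is also known in limb bud and body wall mesoderm. The spine library was not free of forebrain transcripts: a forebrain gene stood in control spine at a median of 15.0% of its level in control brain, while the NTD spine library had a median of 7.55% of NTD brain. Where these reads come from was not tested.

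Midbrain and isthmic genes were split between strongly regional members and signals present in both libraries. Among 17 tested members 8 were at least 2-fold higher in brain and 0 in spine, with a median of 0.82. En2, a homeobox gene of the midbrain and anterior hindbrain, stood at 17.7 FPKM in control brain, 1.79 in control spine, 13.5 in NTD brain and 0.102 in NTD spine. Its neighbour on chromosome 5, Cnpy1, which promotes FGF signalling at the isthmus, was 11.3-fold higher in brain (9.20 to 14.0). Dmbx1, whose CpG-rich promoter is printed above, was at 6.14 FPKM in brain and 0.483 in spine, 12.7-fold (9.42 to 17.6), and Tal2, a helix-loop-helix gene of GABAergic midbrain neurons, 11.2-fold (8.03 to 15.9). En1 differed by 4.60-fold (3.50 to 6.12).

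The organiser's ligands differed less. Fgf8, its main signal, was at 9.68 FPKM in brain and 6.69 in spine, 1.45-fold (1.17 to 1.79), and Fgf8 is also known in the tail bud and limb bud. Fgf17, a related ligand, was 2.44-fold higher in brain (1.95 to 3.07) and Fgf15 2.50-fold (2.05 to 3.06), and these were the 2 of 7 tested FGF ligand genes at 2-fold. Spry1 and Il17rd, feedback inhibitors of FGF signalling, were higher in brain by 1.53-fold (1.31 to 1.79) and 1.48-fold (1.39 to 1.57). Pou3f3 was at 19.3 FPKM in brain and 10.5 in spine, with no interval because its reads did not come out whole. Lmx1b and Fgf18 were slightly higher in spine, at ratios of -0.19 and -0.08. Fgf10, the limb and lung bud ligand, ran towards spine at 2.22-fold (1.73 to 2.88), while its log2 ratio of -0.74 did not reach the threshold.

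All 34 tested Hox genes were lower in control brain, 33 of them at least 2-fold. Their median log2 ratio was -3.13 in the control pair and -2.55 in the NTD pair. The exception was Hoxb2, a gene of the hindbrain, at 1.12 FPKM in brain and 2.82 in spine, a ratio of -0.85. The summed levels differed between sets of paralog groups. The 8 genes of paralog groups 1 to 3, whose domains reach into the hindbrain, summed to 10.5 FPKM in control brain and 48.5 in control spine. The 7 genes of groups 4 and 5 summed to 2.54 against 87.3, and the 8 genes of groups 6 to 8, of the trunk, to 0.168 against 114. For the 7 genes of groups 9 and 10 the sums were 0.139 and 109, and for the 9 genes of groups 11 to 13, which mark the caudal end, 0.0536 and 16.7. Brain thus fell from groups 1 to 3 through groups 4 and 5 to groups 6 to 8, while spine was highest in the middle groups. In reads, the last 3 of these sets had 5, 7 and 2 in control brain against 4032, 4746 and 688 in control spine, so no order among the 3 can be read in brain.

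Hoxa2, Hoxb2 and Hoxb1, all of the anterior groups, came closest to equal levels. Hoxa2, which patterns the second arch and rhombomeres, stood at 3.86 FPKM in control brain, 9.38 in control spine, 4.28 in NTD brain and 11.1 in NTD spine, 2.43-fold higher in spine (1.95 to 3.04). Hoxb1 was 2.995-fold higher (2.44 to 3.69). Further along the Hoxb cluster, Hoxb3 was 9.61-fold higher in spine (7.23 to 13.01), Hoxb4 18.5-fold (13.6 to 25.9), Hoxb5 59.0-fold (22.7 to 218) and Hoxb9 517-fold (202 to 1899), the last on 4 reads in brain. Hoxb6, which lies between Hoxb5 and Hoxb9, was 596-fold higher (106 to 23562) on 1 read in brain. The intervals of Hoxb5, Hoxb6 and Hoxb9 overlap, so no order among these genes can be read. Hoxb9, of the thoracic trunk, had the highest level of any Hox gene, 47.5 FPKM in control spine and 52.9 in NTD spine, with 0.0919 in control brain and 4.18 in NTD brain.

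Of the 34 tested Hox genes 13 had 0 reads in control brain, among them Hoxb7 with 509 reads in control spine, Hoxb8 with 836, Hoxd9 with 526 and Hoxc10 with 383. These are at least 176-fold, 289.6-fold, 182-fold and 133-fold higher in spine. Hoxc6 (18.2 FPKM in spine) and Hoxb6 (17.9) had 2 and 1 reads in brain. The genes of group 13 differed among themselves. Hoxd13 stood at 4.18 FPKM in control spine, on 169 reads, Hoxa13 at 1.07, Hoxc13 at 0.275 and Hoxb13 at 0, and the last had 2 reads in control brain. Hoxa13, Hoxb13, Hoxc12, Hoxc13 and Hoxd12 did not pass the filter. Counting did not necessarily separate overlapping genes, since no source used here gives its strand setting: other genes' exons cover 52.9% of the exon bases of Hoxb3, 62.9% of Hoxd3 and 52.3% of Hoxd4, whose values are therefore uncertain, and up to 35.0% for the other tested Hox genes.

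**Figure D3:**
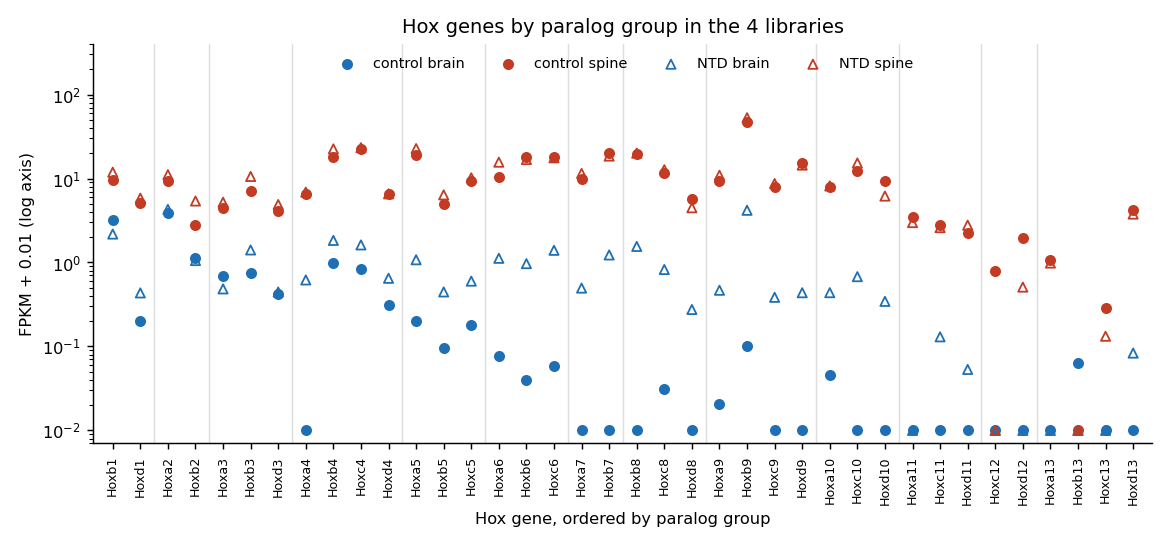
Level of each Hox gene shown (vertical, FPKM + 0.01, log axis, so 0 is drawn at 0.01) in the 4 libraries, ordered by paralog group, with grey lines between groups. Filled circles are the control pair and open triangles the NTD pair: control brain falls from 3.86 FPKM or less in groups 1 to 3 to under 0.1 in groups 6 and above, while NTD brain stays between 0.266 and 4.18 FPKM from group 6 to group 10.

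The 4 longest runs of neighbouring spine-high genes, among tested genes, were the 4 Hox clusters, without Hoxb1, which stands beyond Hoxb2. The run on chromosome 6 (51857422 to 52318378, mm10) held 13 genes, the Hoxa cluster with Skap2, the predicted model 5730596B20Rik and Evx1. Those on chromosome 2 (Hoxd, 74668310 to 74765142), chromosome 11 (Hoxb3 to Hoxb9, 96271457 to 96347930) and chromosome 15 (Hoxc, 102954427 to 103036852) held 8, 7 and 7. Beside these, 9 pairs of neighbours were spine-high, among them Myh6 with Myh7, Nppb with Nppa, Dcn with Lum, Krt5 with Krt8 and Zim1 with Peg3. Brain-high genes had 4 pairs and no longer run: En2 with Cnpy1, Nkx2-1 with Nkx2-9, Six3 with Six2, and Slc44a5 with Lhx8. These pairs were named after their values were seen.

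Hindbrain genes did not divide with the brain library. Of 20 tested members 1 was at least 2-fold higher in brain and 6 in spine, 5 of these being Hox genes of groups 1 to 3, with a median of -0.47 that changed sign under a stricter filter. Irx3, a homeobox gene of the hindbrain and cord, was at 22.1 FPKM in control brain and 21.2 in control spine, a fold of 1.04 (0.949 to 1.13), and Irx2 was 1.89-fold higher in brain (1.66 to 2.16). Meis1 and Meis2, cofactors that bind DNA together with Hox proteins, ran towards spine by 2.08-fold (1.93 to 2.25) and 1.51-fold (1.43 to 1.596). Cyp26c1, which degrades retinoic acid in the anterior hindbrain, was the brain-high member, at 19.8 FPKM against 6.68. The sixth spine-high member was Tbx20, which is also in the heart list.

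Genes of the tail bud leaned to spine, with 11 ratios below 0 and 4 above. Of 15 tested members 8 were at least 2-fold higher in spine and 1 in brain, with a median of -1.50. The median was -0.33 under a minimum mean of 5 FPKM, which tests fewer members, and -0.52 or -2.39 where 5 or 0.1 was added to each FPKM in place of 1. T, the brachyury factor of the primitive streak and notochord, stood at 0.307 FPKM in control brain, 7.91 in control spine, 1.10 in NTD brain and 11.7 in NTD spine, a control fold of 25.8 (14.6 to 50.5). Among members named after their values were seen, Cdx2 and Cdx4, caudal homeodomain factors that activate trunk Hox genes, had 3 and 0 reads in brain against 193 and 166 in spine. Msgn1, a switch of presomitic mesoderm, had 0 against 33. Dll3 and Cyp26a1 were below the threshold at 1.51-fold (1.29 to 1.76) and 1.89-fold (1.55 to 2.32), and Gdf11 at 1.10-fold (1.01 to 1.20). Wnt3a, a tail bud ligand also made in the dorsal midline of the brain, was the exception, 2.44-fold higher in brain (1.97 to 3.03), and Lfng, a modulator of Notch, was 1.50-fold higher there (1.36 to 1.66). Sp5 and Wnt5b also leaned to brain, at ratios of 0.41 and 0.12.

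Somite genes leaned to spine, with 14 ratios below 0 and 4 above. Of 18 tested members 9 were at least 2-fold higher in spine and 0 in brain, with a median of -1.11. Meox1, needed for the somite's cartilage and joint lineages, was at 3.42 FPKM in control brain, 63.6 in control spine, 11.1 in NTD brain and 77.3 in NTD spine, 18.6-fold higher in control spine (15.6 to 22.4). Tcf15, which keeps young somites epithelial, was 18.9-fold higher (12.2 to 30.9) and Meox2, the paralog of Meox1, 10.2-fold (7.03 to 15.3). Members with known sites in the head or dorsal neural tube did not follow: Foxc1 was nearly equal at 9.29 and 9.26 FPKM, and Pax3 was at 6.37 and 7.55. Foxc2 was close to the threshold at 2.12-fold (1.85 to 2.43) and a ratio of -0.98. Pax7 and Eya4 leaned to brain at 0.76 and 0.34.

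Other mesoderm of the trunk was higher in spine in part of its members. Of 11 tested intermediate mesoderm genes 4 were at least 2-fold higher in spine. Osr1, which marks intermediate mesoderm from its start, was 9.52-fold higher (5.91 to 16.2), from 0.544 against 5.18 FPKM. Wt1, of the coelomic lining and kidney, had 3 against 215 reads, Ret, the receptor of the ureteric bud, 51 against 281, and Wnt11, its tip ligand, 13 against 133. Sall1 (15.2 and 23.1 FPKM) and Npnt (9.05 and 11.3) did not reach 2-fold, Eya1 (6.44 and 4.62) was higher in brain, and Gfra1 (2.11 and 2.17) was nearly equal.

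Of 18 tested lateral plate and limb bud genes 6 were at least 2-fold higher in spine. Hand1, a factor of lateral mesoderm and heart, stood at 2.46 FPKM in control brain and 29.0 in control spine, 11.8-fold (9.42 to 14.9). Hand2, its paralog, was 7.83-fold higher (6.16 to 10.1) and Foxf1, of splanchnic mesoderm, 6.77-fold (5.15 to 9.04). Tbx5 and Tbx4, the T-box genes of forelimb and hindlimb, were named after their values were seen and were 17.7-fold (11.4 to 29.0) and 50.3-fold (21.3 to 156) higher in spine. Bmp4 was the sixth, at 8.63 against 18.9 FPKM. Genes that limb mesenchyme shares with the face were near equality, with Prrx1 at 10.03 and 9.29 FPKM, Prrx2 at 20.2 and 23.3, Msx1 at 21.0 and 21.1 and Irx5 at 10.3 and 8.67.

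**Figure D4:**
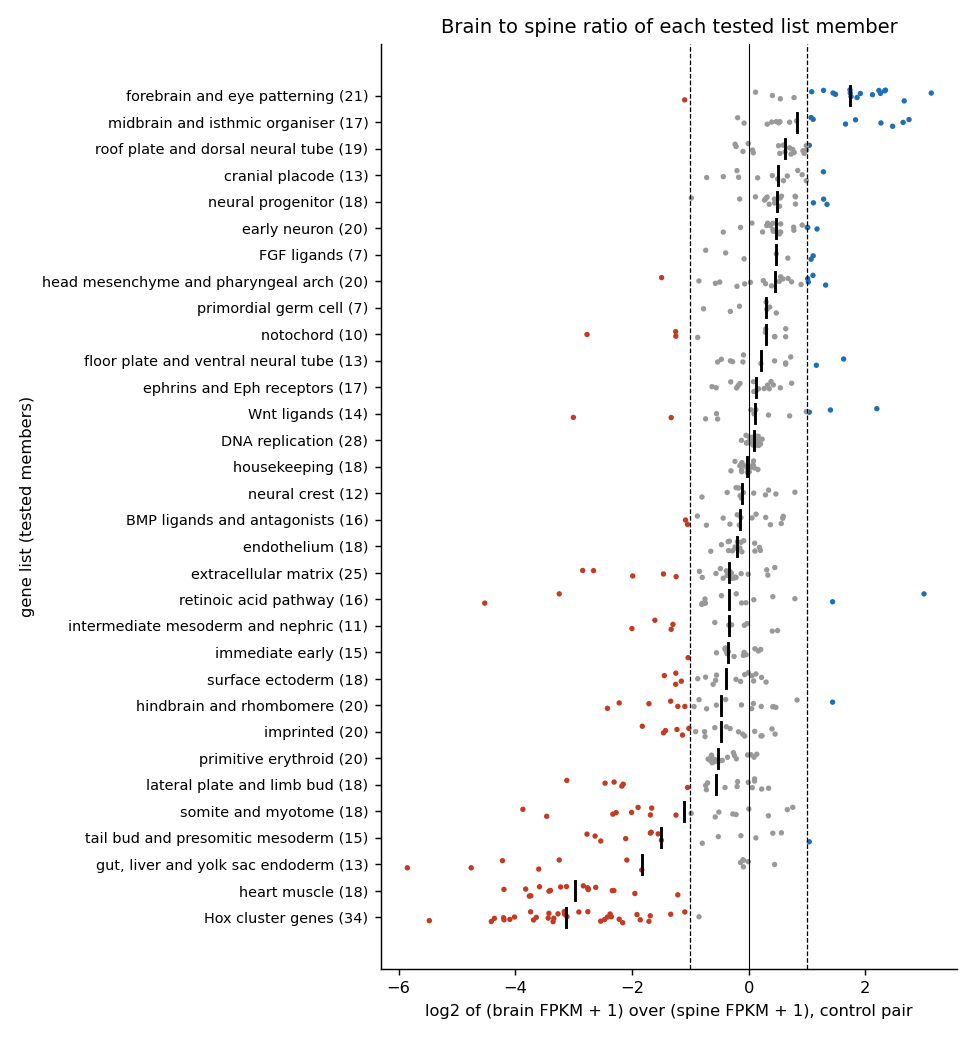
Log2 ratio of (FPKM + 1) in control brain over control spine (horizontal) for every tested member of each gene list with at least 5 tested members (vertical, number in parentheses). Blue points are at least 2-fold higher in brain, red points at least 2-fold higher in spine, black bars are list medians, and height within a row has no meaning: forebrain genes lead at a median of 1.74 and Hox genes are lowest at -3.13.

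In the retinoic acid pathway the 2 main enzymes of synthesis were divided between the libraries. Vitamin A is carried by Rbp4, taken up through Stra6, oxidised by Rdh10 and then by the Aldh1a enzymes, and the acid is degraded by the Cyp26 enzymes. Aldh1a2, the enzyme of somites and trunk mesoderm with the CpG-rich promoter printed above, stood at 0.522 FPKM in control brain, 34.0 in control spine, 4.34 in NTD brain and 46.8 in NTD spine, 65.1-fold higher in control spine (41.9 to 107). Aldh1a3, the enzyme of the eye and frontonasal ectoderm, stood at 14.4, 0.918, 15.4 and 0.378 FPKM in the same order, 15.7-fold higher in control brain (12.3 to 20.3). Each control library thus held 1 of the 2 at over 10 FPKM and the other below 1 FPKM.

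Of the degrading enzymes, Cyp26c1 was 2.97-fold (2.52 to 3.51) and Cyp26b1 1.37-fold (1.25 to 1.51) higher in brain, while Cyp26a1, the tail bud enzyme, was higher in spine as given above. The binding protein Crabp1, of hindbrain and neural crest, was among the most abundant transcripts in the list at 754 FPKM in brain and 435 in spine, 1.73-fold (1.68 to 1.79). Crabp2 was near equality at 257 and 242 FPKM. Rbp4, which liver and yolk sac secrete, was 14.0-fold higher in spine (10.2 to 19.5). The nuclear receptor Rxra was at 14.3 and 14.8 FPKM. Over the 16 tested members 2 were at least 2-fold higher in brain and 2 in spine, with a median of -0.34.

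The Wnt ligand genes were likewise divided, 3 of 14 tested being at least 2-fold higher in brain and 2 in spine, with a median of 0.11, whose sign depended on the filter. Wnt8b, of the forebrain and midbrain midline, was at 6.34 FPKM in control brain and 0.601 in control spine, 10.6-fold (7.42 to 15.5). Wnt7b was 3.35-fold higher in brain (2.84 to 3.97), and Wnt1, of the isthmus and dorsal midline, 1.78-fold (1.46 to 2.17). Wnt2, a ligand of lung mesoderm and heart, was 28.6-fold higher in spine (16.5 to 54.3), at 0.341 against 9.76 FPKM. Wnt5a (8.50 and 12.7 FPKM), Wnt6 (7.90 and 13.8) and Wnt4 (2.83 and 4.62) leaned to spine within 2-fold.

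Of 16 tested BMP ligand and antagonist genes 2 were at least 2-fold higher in spine, Bmp4 and Bmp2, and 0 in brain. Bmp7 was at 9.61 and 10.9 FPKM, Bmp1 at 6.85 and 8.80, and the antagonists Fst (6.12 and 4.50) and Nog (4.71 and 3.66) leaned to brain. Of 17 tested ephrin and Eph receptor genes 0 reached 2-fold in either direction, with ratios from -0.63 to 0.74.

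Dorsal genes of the neural tube leaned to brain, with 15 of 19 ratios above 0, while ventral genes were divided, with 7 of 13 above 0. Of 19 tested roof plate and dorsal genes 1 was at least 2-fold higher in brain, which was Wnt3a, and 0 in spine, with a median of 0.62. Zic1 and Zic2, zinc finger genes of the dorsal neural tube, were at 28.9 and 25.8 FPKM in control brain against 17.0 and 14.6 in control spine. Rspo1, which amplifies Wnt signals, was 2.11-fold higher in brain (1.75 to 2.56), and its ratio of 0.95 fell short of the threshold. Msx1, Msx3 and Olig3 were within 1.1-fold.

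On the ventral side 2 of 13 tested genes were at least 2-fold higher in brain and 0 in spine, with a median of 0.21 that changed sign under a stricter filter. These were Nkx6-2, 4.10-fold (3.12 to 5.48), and Nkx2-9, 2.57-fold (1.97 to 3.39), homeobox genes that respond to Sonic hedgehog. Shh itself was at 12.8 and 7.90 FPKM, 1.62-fold (1.42 to 1.85). Its target genes Ptch1 (12.6 and 13.5 FPKM) and Gli1 (10.1 and 12.4) were slightly higher in spine, as were Ntn1, the floor plate's axon guidance cue (19.2 and 27.0), and Nkx6-1 (6.54 and 8.36).

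Markers of neural progenitors and neurons were present in both libraries and moderately higher in brain. Of 18 tested progenitor genes 16 had a ratio above 0 and 3 reached 2-fold, with a median of 0.49. Sox2, the core factor of neural progenitors, was at 80.6 FPKM in control brain, 45.8 in control spine, 72.2 in NTD brain and 37.5 in NTD spine. Its control fold of 1.76 (1.65 to 1.88) was close to that of Sox3, 1.78 (1.61 to 1.97). The members at 2-fold were Sox1, Sox21 and Fabp7, a fatty acid binding protein of radial glia, and Fabp7 stood at 36.2 and 14.3 FPKM. Nes (75.8 and 55.5 FPKM), Msi1 (52.7 and 35.9) and Vim (163 and 150) differed less. Ncam1, a cell adhesion molecule, went against them at 3.19 FPKM in brain and 7.28 in spine, 2.28-fold (2.04 to 2.55).

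Of 20 tested early neuron genes 18 were above 0 and 2, Stmn2 and Stmn3, were at least 2-fold higher in brain, with a median of 0.47. Tubb3, the tubulin of new neurons, was at 96.9 and 48.0 FPKM, a fold of 2.02 (1.90 to 2.15) that the added 1 FPKM brought just under the threshold. Gap43 was at 43.1 and 32.1 FPKM, Nefm at 15.5 and 10.2 and Nefl at 8.76 and 6.27. Isl1, a factor of motor and sensory neurons, had the lowest ratio of the list, at 5.50 FPKM in brain and 7.78 in spine.

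Genes known from the tissues around the brain were divided, most leaning to brain. Of 20 tested genes of head mesenchyme and pharyngeal arch 4 were at least 2-fold higher in brain and 1 in spine, with a median of 0.46. Six2 and Alx4, of frontonasal and cranial mesenchyme, were at 11.4 and 12.8 FPKM in control brain against 3.97 and 5.41 in control spine, and Tfap2b, of the facial neural crest, was 2.23-fold higher in brain (2.02 to 2.48). Lhx8 was the fourth, with 119 reads against 36. Tcf21, an epicardial and visceral mesoderm factor, was the spine-high member, 5.38-fold (3.57 to 8.38). Barx1, which is known in both arch and stomach mesenchyme, leaned to spine at 1.45-fold (1.22 to 1.73).

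Among 13 tested placode genes Neurod1 was at least 2-fold higher in brain (2.85-fold, 2.37 to 3.46), with a median of 0.50, and Neurog2, which also acts in spinal progenitors, was higher in spine (6.90 and 12.0 FPKM). Migrating neural crest genes were shared, with 0 of 12 at 2-fold, a median of -0.11, and Sox10 at 5.0002 FPKM in brain and 5.76 in spine.

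The spine library held heart muscle transcripts at high levels. All 18 tested heart genes were at least 2-fold higher in control spine, with a median log2 ratio of -2.98, while 3 of the 21 listed did not pass the filter. Actc1, cardiac actin, stood at 20.8 FPKM in control brain, 307 in control spine, 90.02 in NTD brain and 211 in NTD spine, 14.8-fold higher in control spine (13.6 to 16.1). Myl7, whose CpG-poor promoter is printed above, stood at 18.5, 259, 75.3 and 173 FPKM in the same order. Control spine was highest and control brain lowest for both, with the NTD libraries between them. Myh6, the atrial myosin heavy chain, was 29.2-fold higher in control spine (25.1 to 34.0), Myl2, the ventricular light chain, 18.4-fold (14.8 to 23.2) and Tnnc1, cardiac troponin C, 15.3-fold (11.7 to 20.2). Myl3, Myl4 and Mybpc3 were 15.0-fold, 15.8-fold and 13.5-fold higher. Actc1 is also known in young skeletal muscle of the somites. In control brain a heart gene stood at a median of 6.77% of its spine level. Without the members of the heart, gut, blood, endothelium, macrophage, surface ectoderm, germ cell and notochord lists, a count added after seeing the data, 204 of the 234 spine-high and 80 of the 80 brain-high genes remained. No brain-high gene was in these lists. Only listed genes were taken out, so muscle genes outside the lists, such as Acta1 and Actn2, remained among the 204. Both were named after their values were seen, at ratios of -3.30 and -2.72. The part of heart, gut and the other listed tissues in the levels of shared genes such as Hand1 and Bmp4 was not tested.

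Several serum proteins of liver and yolk sac had few or no reads in control brain. Afp stood at 0 FPKM in control brain, 56.7 in control spine, 0.126 in NTD brain and 20.7 in NTD spine, or 0 reads against 3106 in the control pair, at least 1076-fold. Apoa1, an apolipoprotein, had 2 against 575 reads, 299-fold (82.3 to 2473), Ttr, which carries thyroid hormone and retinol, 0 against 340, at least 118-fold, and Apoa2 0 against 97, at least 33.6-fold. Trf, transferrin, was 5.27-fold higher (4.16 to 6.74), but another gene covers 63.5% of its exon bases. The list's general endoderm and epithelial members did not share this: Epcam was at 19.5 and 19.6 FPKM, Cldn6 at 30.0 and 33.1, and Foxa2 at 5.09 and 3.47. Of 13 tested members 7 were at least 2-fold higher in spine, with a median of -1.83 that was -3.73 under a minimum mean of 5 FPKM and -0.87 with no filter.

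Epithelial keratins were higher in spine, with Krt8 at 30.2 and 73.2 FPKM, 2.43-fold (2.25 to 2.61), and Krt19 2.62-fold (2.20 to 3.13), while the epithelial cadherin Cdh1 was at 10.2 and 9.57. Of 18 tested surface ectoderm genes 4 reached 2-fold, Dsp, Krt19, Krt8 and Krt5, all in spine. Dsp, which encodes the desmosomal protein desmoplakin, was 3.07-fold higher (2.83 to 3.33), and desmosomes are also known in heart muscle.

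Blood and vessels did not reach 2-fold in any gene. The 20 tested primitive erythroid genes had a median of -0.53 in the control pair, and of 0.23 in the NTD pair, so blood genes leaned to spine in the controls and to brain in the NTD libraries. Hbb-bh1, an embryonic beta globin, stood at 1519 FPKM in control brain, 2332 in control spine, 1783 in NTD brain and 1315 in NTD spine. Reads of near-identical globin copies may be split between genes, so single globin values are uncertain. Of 18 tested endothelial genes 14 leaned to spine, with a median of -0.19. Only 2 of 16 macrophage genes passed the filter, Cd68 and Laptm5.

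Extracellular matrix genes leaned to spine, 22 of 25 tested members having a ratio below 0 and 5 being at least 2-fold higher there. Col1a1, a chain of type I collagen, was at 12.0 FPKM in control brain, 81.2 in control spine, 5.88 in NTD brain and 42.4 in NTD spine, 6.75-fold (6.37 to 7.16). Its partner chain Col1a2 was at 18.9 and 26.8 FPKM, 1.42-fold (1.36 to 1.48). The others at 2-fold were Postn, Tnc, Dcn and Lum, with Postn, a matrix protein of heart valves and mesenchyme, at 2.64 and 25.1 FPKM. Fn1 was 1.81-fold higher in spine (1.76 to 1.86), and Col2a1, of notochord and early cartilage, 1.37-fold higher in brain (1.33 to 1.42).

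Imprinted genes, expressed from 1 parental copy, leaned to spine as well, 6 of 20 tested being at least 2-fold higher there and 0 in brain, with a median of -0.48. Igf2r, the receptor that clears the growth factor Igf2, was at 23.6 and 52.9 FPKM, 2.25-fold (2.16 to 2.33). Peg3, a zinc finger gene, was at 34.0 and 80.9 FPKM, and its neighbour Zim1 4.88-fold higher in spine (4.26 to 5.597). Igf2 was 3.35-fold higher (2.90 to 3.87), although other genes cover 64.55% of its exon bases. The remaining 2 were Dcn and Phlda2. Peg10 and Cdkn1c were both 1.70-fold higher in spine, while Mest (420 and 363 FPKM) and Nnat (273 and 199) were higher in brain.

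Replication and housekeeping genes were level between the libraries. All 28 tested DNA replication genes were within 2-fold, with ratios from -0.12 to 0.23 and a median of 0.10, and all 18 housekeeping genes likewise, with a median of -0.02. Pcna, the replication clamp, was at 176 and 150 FPKM and Actb at 977 and 946. Of the 4 tested Y-linked genes all were somewhat higher in spine, up to 1.64-fold (Ddx3y, 1.42 to 1.90). Immediate early genes, which respond quickly to stimuli and to tissue handling, leaned to spine in 12 of 15 tested members, with a median of -0.35 (-0.11 in the NTD pair), and 1 of them, Fos, was spine-high on 12 against 64 reads.

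Several of the most regional genes were in none of the lists. On the brain side, Trh, the thyrotropin-releasing hormone precursor, stood at 13.8 FPKM in control brain, 1.82 in control spine, 13.7 in NTD brain and 0.566 in NTD spine, 7.56-fold (5.45 to 10.7). Sst, the somatostatin precursor, was at 17.1 and 5.46 FPKM in the control pair. Wfdc1, a secreted protease inhibitor, was 5.55-fold higher in brain (4.18 to 7.49), Irs4, an insulin receptor substrate, 8.46-fold (6.77 to 10.7), Pcp4l1 5.43-fold (3.79 to 7.96) and Crym, a thyroid hormone binding protein, 3.84-fold (3.04 to 4.89). Lypd8 had 145 reads in control brain and 0 in each of the other 3 libraries, so its high value is 1 library's. On the spine side S100g, a calcium binding protein, was at 0.123 and 12.9 FPKM, with 1 against 101 reads. The lists together held 41 of the 80 brain-high and 105 of the 234 spine-high genes. The share of all tested genes that is in any list was not taken, so these counts show no excess. The lists were also chosen with earlier results of these data known.

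The regional contrast was then read in the NTD pair, in which 87 genes were at least 2-fold higher in brain (0.777%) and 192 in spine (1.71%). Of the 80 genes brain-high in the control pair, 64 were also brain-high in the NTD pair, which is 80.0% of the control genes and 73.6% of the NTD genes. Of the 234 spine-high genes 168 were shared, 71.8% of the control and 87.5% of the NTD genes. The sign was the same for 78 and 231, and 0 genes were 2-fold in opposite directions. The 5 with another sign or a ratio of 0 were Lypd8 and March5 on the brain side and Gm17545, Hist1h3i and Gm10964 on the spine side, named after their values were seen.

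The size of the contrast differed by gene group between the pairs. The 80 brain-high genes had a median of 1.37 in the control pair and 1.30 in the NTD pair, and the 234 spine-high genes -1.83 and -1.30. Since the control pair chose these genes, a pull towards 0 in the other pair is built into such a comparison. Of the 234 spine-high genes 190 were nearer 0 in the NTD pair, while 48 of the 80 brain-high genes were farther from 0 there. Chosen on the NTD pair instead, its 192 spine-high genes had a median of -1.54 there and -1.89 in the control pair, and 68 of the 192 were nearer 0 in the control pair. The 87 brain-high genes of the NTD pair had a median of 1.34 there and 1.26 in the control pair. Of these 87, 71 were nearer 0 in the control pair. Forebrain genes had 16 brain-high members in each pair, and 4 of 21 had their larger ratio in the control pair. For Hox genes 27 of 34 had the larger ratio in the control pair, and for heart genes 18 of 18.

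Hox and heart transcripts were less scarce in NTD brain than in control brain. A Hox gene stood in brain at a median of 0.232% of its spine level in the control pair and 6.71% in the NTD pair, and a heart gene at 6.77% and 41.9%. Heart genes summed to 61.9 FPKM in control brain and 254 in NTD brain, but also to 904 in control spine and 604 in NTD spine. The heart percentage thus moved with both its parts. Hox genes summed to 13.4 and 33.1 FPKM in control and NTD brain, and to 371 and 408.5 in control and NTD spine. Medians of other trunk lists moved less. They were 16.7% and 15.8% for tail bud genes and 64.3% and 57.5% for lateral plate and limb bud genes. For intermediate mesoderm genes they were 67.4% and 68.8%, and for somite genes 31.1% and 35.8%. The gut list rose from 18.97% to 54.88%, with sums of 65.1 and 68.5 FPKM in brain and 218 and 114 in spine. Outside the Hox, heart and gut lists, 25 lowest control ratios named by the rule included Aldh1a2 (1.54% and 9.29%) and Gm14226 (1.29% and 9.08%). Meox1 (5.38% and 14.4%) and Tcf15 (5.29% and 9.46%) rose too, while S100g (0.953% and 0%) did not. The 8 genes of Hox groups 6 to 8 summed to 0.168 FPKM in control brain and 7.79 in NTD brain, beside 114 and 117 in the spine libraries. Heart genes in the NTD pair had ratios from -2.16 to -0.98 with a median of -1.10, and 16 of the 18 had their highest level in control spine. Whether the NTD brain library holds other tissue or its cells express these genes was not tested. Without the 18 listed heart genes, 216 spine-high genes remained, with medians of -1.73 in the control pair and -1.32 in the NTD pair. Of these, 153 were 2-fold in the NTD pair too. Muscle genes outside that list, such as Actn2, are still among the 216.

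**Figure D5:**
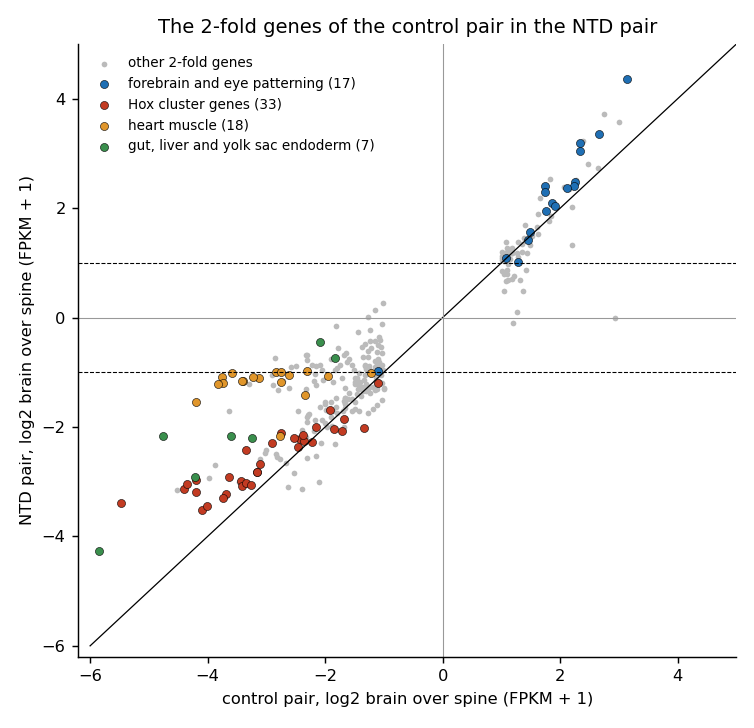
Log2 brain over spine ratio of (FPKM + 1) in the control pair (horizontal) and the NTD pair (vertical) for the 314 genes at least 2-fold in the control pair, with 4 gene lists in colour and the number of their members shown. The solid line marks equal ratios and the dashed lines 2-fold in the NTD pair: forebrain genes lie mostly above the line, heart genes have a median of -1.10 in the NTD pair and -2.98 in the control pair, and Hox genes are far from 0 in both.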

How the data were processed

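The authors deposited 1 table of FPKM for 28765 genes in 4 libraries of E9.5 mouse embryos, with 1 column per library. Alignment used HISAT2 2.0.1 and the mm10 build, per the submitters' processing notes. No source used here gives the program that counted reads, its annotation, strand setting or filters. Samples were grouped by their titles. Identifiers were matched to GENCODE M21 (28698 of 28765), and FPKM times union exon length gave reads that were whole within 0.01 reads in all libraries for 28298 genes (98.6%). Of the tested genes 198 were not whole, 5 of them 2-fold, and these have no interval. Recovered reads were used only for intervals and bounds.

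Brain was set against spine as log2 of the ratio of (FPKM + 1), in genes annotated as protein coding whose 4 libraries averaged 1 FPKM or more, and 2-fold was the threshold. The steps were tested on simulated data. The 34 gene lists, the members and the naming rule were chosen with earlier results of these data known. The rule names the 25 highest and 25 lowest ratios among genes that reached 5 FPKM in either control library, every Hox gene, and in each list described up to 8 members of highest level and those against its median. Predicted models could be passed over. A few genes that the rule names are not reported here. Names outside it are marked as chosen after values were seen, as are list members given only to complete a count of 6 or fewer. Alternatives were pseudocounts of 0.1 and 5, median ratio scaling, no filter, a mean of 5 FPKM, all gene types, and intervals that exclude 1. Counts without the other-tissue lists (heart, gut, blood, endothelium, macrophage, surface ectoderm, germ cell and notochord) were added after seeing the data. Calculations used Python 3.11.15, numpy 2.4.6, pandas 2.3.3 and scipy 1.17.1.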

Additional observations from a re-analysis of the deposited data

How the results depend on the processing

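Within the control pair no test across replicates was possible, paired or not, because each group holds 1 library. For the same reason no replicate could be left out. A fit of region over all 4 libraries with treatment as a second factor, which would join the control and NTD pairs, was not run. The 80 brain-high genes became 142 with a pseudocount of 0.1, 20 with a pseudocount of 5, 27 under a minimum mean of 5 FPKM and 127 with all gene types. The 234 spine-high genes became 98 with a pseudocount of 5 and 86 under a minimum mean of 5 FPKM. The 232 genes 2-fold in both pairs became 356 with a pseudocount of 0.1, 68 with a pseudocount of 5 and 91 under a minimum mean of 5 FPKM. A higher pseudocount or filter removes weakly expressed genes by construction. The first 2 counts stayed within 1.5-fold with intervals that exclude 1, and all 3 with median ratio scaling, with no filter and without the other-tissue lists, under which 80, 204 and 208 genes remained. Among list medians, hindbrain turned to 0.0667, floor plate to -0.182, Wnt ligands to -0.204 and notochord to -0.873 under a minimum mean of 5 FPKM, which tests fewer members. With no filter, FGF ligands turned to -0.0656, Wnt ligands to -0.0915 and germ cell genes to -0.0788. Some other medians kept their sign but moved by over 1.5-fold. With pseudocounts of 0.1 and 5, forebrain was 2.65 and 0.72, tail bud -2.39 and -0.52, heart -3.82 and -1.90, and Hox -5.65 and -1.37. Somite was -1.81 with 0.1, and gut was -0.99 with 5. Smaller shifts took imprinted genes to -0.73 with 0.1 and -0.27 with 5, and with 5 somite to -0.54 and roof plate to 0.32. Head mesenchyme went to 0.90 under a minimum mean of 5 FPKM. The first 6 lists have no direction that holds across settings, and the cause was not tested. The ratios of the 50 highest and lowest genes kept their sign under median ratio scaling. Its factors were nearly equal in control brain and control spine (1.012 and 1.013), so little change could come of it. A pseudocount cannot change the sign of a ratio, so the other pseudocounts were no check of it. In a gene of 1 kb, 3 reads stand for 0.177 to 0.184 FPKM, and smaller differences were not detectable.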
